A study of Mus musculus with 98 samples.

Results

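The metallothionein genes Mt1, Mt2 and Mt3 were followed through bulk RNA sequencing of 98 mouse hippocampal libraries, as 3 genes of the 24754 symbols that the 6 deposited count tables share. They were named as a gene family, and no measured value enters the rule that selects them. Metallothioneins are small proteins rich in cysteine that bind zinc and copper. Mt1 and Mt2 are made in most tissues and are induced by zinc, through the metal-responsive transcription factor Mtf1, and by oxidative stress and glucocorticoids. In brain they are known mainly from astrocytes. Mt3, first described as a growth inhibitory factor, is a brain form that metals induce far less, and it is found in astrocytes and in neurons that hold zinc in their vesicles.

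The study raised ACSS2, the enzyme that makes acetyl-CoA from acetate, with a virus of the PhP.eB capsid (upACSS2) and compared it with a virus without the enzyme (vector). Cultures of embryonic hippocampal neurons from CD1 mice received a virus first and then hAD-tau or PBS. They were sampled on day 9 or day 21 in vitro without stimulation, or on day 21 after a stimulation that the labels do not describe (no strain is given for the stimulated libraries). Each of these 12 groups had 3 libraries. Further cultures without virus received hAD-tau (4 libraries) or PBS (3 libraries) and were sampled on day 21. In male C57BL6 mice injected at 21 to 22 months and labelled as 22 to 23 months old, whole hippocampus was taken after memory recall 2 months later, in 12 mice per virus. In male C57BL6 mice of 10 months, dorsal hippocampus was taken after fear conditioning, 2 weeks after injection, in 6 mice with upACSS2 and 5 with vector. Male PS19 mice, which carry a mutant human tau transgene under the prion protein promoter, were injected at 2.5 months and sampled after recall 1 month later (3.5 months old) or 6 months later (8.5 to 9 months old), in 5 mice per virus and time. The PS19 libraries all carry the transgene, so no group without it entered these comparisons. The 1-month PS19 upACSS2 group is labelled whole hippocampus and the other PS19 groups dorsal hippocampus, so region and virus cannot be told apart there. The treatment entry contradicts the title for several groups, and groups were taken from the titles.

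Acss2 itself was higher with upACSS2 in all 6 virus comparisons of cultured neurons, by 5.21 to 6.48 on the log2 scale (edgeR adjusted p of 1.9e-06 or less). In the 4 comparisons in mice its log2 difference was 0.20 to 3.53 and did not pass the test (edgeR adjusted p 0.371 to 0.832). Library totals ran from 5075099 to 39985460 counts. The lowest count of any of the 3 genes in any library was 317. The counting error was larger than the SD between libraries in 2 of 66 pairs of gene and group, Mt1 (3.56% against 1.23% of the mean) and Mt3 in day 9 cultures with vector and PBS. Markers of neurons and astrocytes were present in every table, and no marker of the astrocyte, neuron, oligodendrocyte or microglia lists was at 0 throughout a table. Cldn5, the endothelial tight junction gene, was at 0 in every stimulated and every virus-free culture library. Nothing in the labels says whether the 3 libraries of a culture group came from separate cultures, so p-values for cultures measure the spread between these libraries, which may be technical.

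The 3 genes lie in the same orientation within 1 cluster on chromosome 8 (GRCm38, plus strand, GENCODE vM21). Mt3 (ENSMUSG00000031760.9) spans 94152607 to 94154146, Mt2 (ENSMUSG00000031762.7) 94172664 to 94173568 and Mt1 (ENSMUSG00000031765.8) 94179082 to 94180327. Each has 3 exons in its first listed transcript. Mt2 and Mt1 are 5513 bases apart and Mt3 and Mt2 18517 bases apart. Mt4, the form of stratified epithelia, lies 13575 bases before Mt3. It had 1 count in each of 3 libraries and 0 counts in the other 95, and is not considered further. The exons of Mt2 share 432 bases with Gm45774, an antisense gene that the tables of neurons with virus do not list. Gm45774 had 0 to 20 counts per library in the other 4 tables. Whether counting used strand is not given in the sources used here, so Mt2 was tested within tables only. Where Mt2 levels or ratios of different tables are set side by side, a difference in counting may enter.

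The 250 bases before the RefSeq start of each gene (GRCm38.p6) are shown as a description. No relation of these letters to the levels was tested. Capitals mark matches to the core of the metal response element, searched on both strands as TGCACNC and TGCGCNC, the letters that Mtf1 is known to bind.

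Mt1 (chr8:94178839-94179088): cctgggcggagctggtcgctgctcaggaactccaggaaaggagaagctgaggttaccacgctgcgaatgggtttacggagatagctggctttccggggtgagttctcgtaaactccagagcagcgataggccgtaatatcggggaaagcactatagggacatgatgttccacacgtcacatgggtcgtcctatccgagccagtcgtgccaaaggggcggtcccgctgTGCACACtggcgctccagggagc
Mt2 (chr8:94172368-94172617): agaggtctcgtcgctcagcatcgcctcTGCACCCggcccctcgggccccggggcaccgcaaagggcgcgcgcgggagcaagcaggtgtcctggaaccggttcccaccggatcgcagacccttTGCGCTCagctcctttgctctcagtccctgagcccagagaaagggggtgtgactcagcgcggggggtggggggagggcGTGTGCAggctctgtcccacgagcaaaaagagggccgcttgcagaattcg
Mt3 (chr8:94152357-94152606): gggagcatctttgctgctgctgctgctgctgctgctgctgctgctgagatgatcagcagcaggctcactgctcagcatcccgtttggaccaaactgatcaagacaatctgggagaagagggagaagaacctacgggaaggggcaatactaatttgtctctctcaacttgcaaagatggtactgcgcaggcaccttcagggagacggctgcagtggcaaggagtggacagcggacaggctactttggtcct

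The Mt2 window held 3 cores, 2 of the first form and 1 of the second. The Mt1 window held 1 and the Mt3 window 0. Of 32841 mouse promoter windows of this length, 21.4% held at least 1 core and 1.26% held 3 or more. In the 50 bases after the start, Mt1 had 2 further cores, Mt2 had 1 and Mt3 had 1. With these bases included, windows of 300 bases held 3 cores in Mt1, 4 in Mt2 and 1 in Mt3. At least as many were held by 1.97%, 0.518% and 25.7% of mouse promoter windows of that length. The counts that follow are for the bases before the start only. The antioxidant response element, searched as TGACNNNGC, matched once in Mt2 and in neither of the others, against 10.2% of all windows. The GC box GGGCGG, which Sp1 binds, matched at 2 places in Mt1 and at none in Mt2 or Mt3, against 32.7% of all windows. None of the 3 windows held the glucocorticoid half-site AGAACA (16.1% of windows) or the E-box CACGTG (6.02% of windows). GENCODE places the first listed transcript of Mt1 7 bases before the RefSeq start, that of Mt2 46 bases after it and that of Mt3 at it. It lists other transcripts that begin 122 to 242 bases after the RefSeq start, so each window is placed on only 1 of several annotated starts. A match is a description of letters, and its use in these cells was not tested.

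Cultures on day 9 had the lowest level of all 3 genes, and day 21 cultures the widest spread. Levels are in CPM, the count of a gene scaled to a common library total, with TMM factors within each table, so values from different tables are set side by side without a test. On day 9, Mt1 lay between 33.8 and 46.6 CPM in 12 libraries, Mt2 between 36.3 and 54.5 CPM, and Mt3 between 51.0 and 77.6 CPM. In the unstimulated day 21 libraries Mt1 ran from 117.5 to 683 CPM, with a median of 198 CPM. Mt2 ran there from 77.6 to 549 CPM and Mt3 from 163 to 453 CPM. No day 21 library reached down to any day 9 library for any of the 3 genes. Stimulated day 21 cultures had 196 to 288 CPM of Mt1, 136 to 216 CPM of Mt2 and 111 to 239 CPM of Mt3. In virus-free cultures the ranges were 179 to 459 CPM for Mt1, 88.5 to 285 CPM for Mt2 and 229 to 603 CPM for Mt3. In mouse hippocampus Mt1 was at 112 to 194 CPM in the aged mice, 114 to 183 CPM at 10 months and 105 to 217 CPM in PS19 mice. Mt2 was lower in the same mice, at 62.8 to 112, 62.8 to 108 and 59.9 to 195 CPM. Mt3 was at 131 to 393 CPM in the aged mice, 170 to 367 CPM at 10 months and 172 to 390 CPM in PS19 mice.

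**Figure D1:**
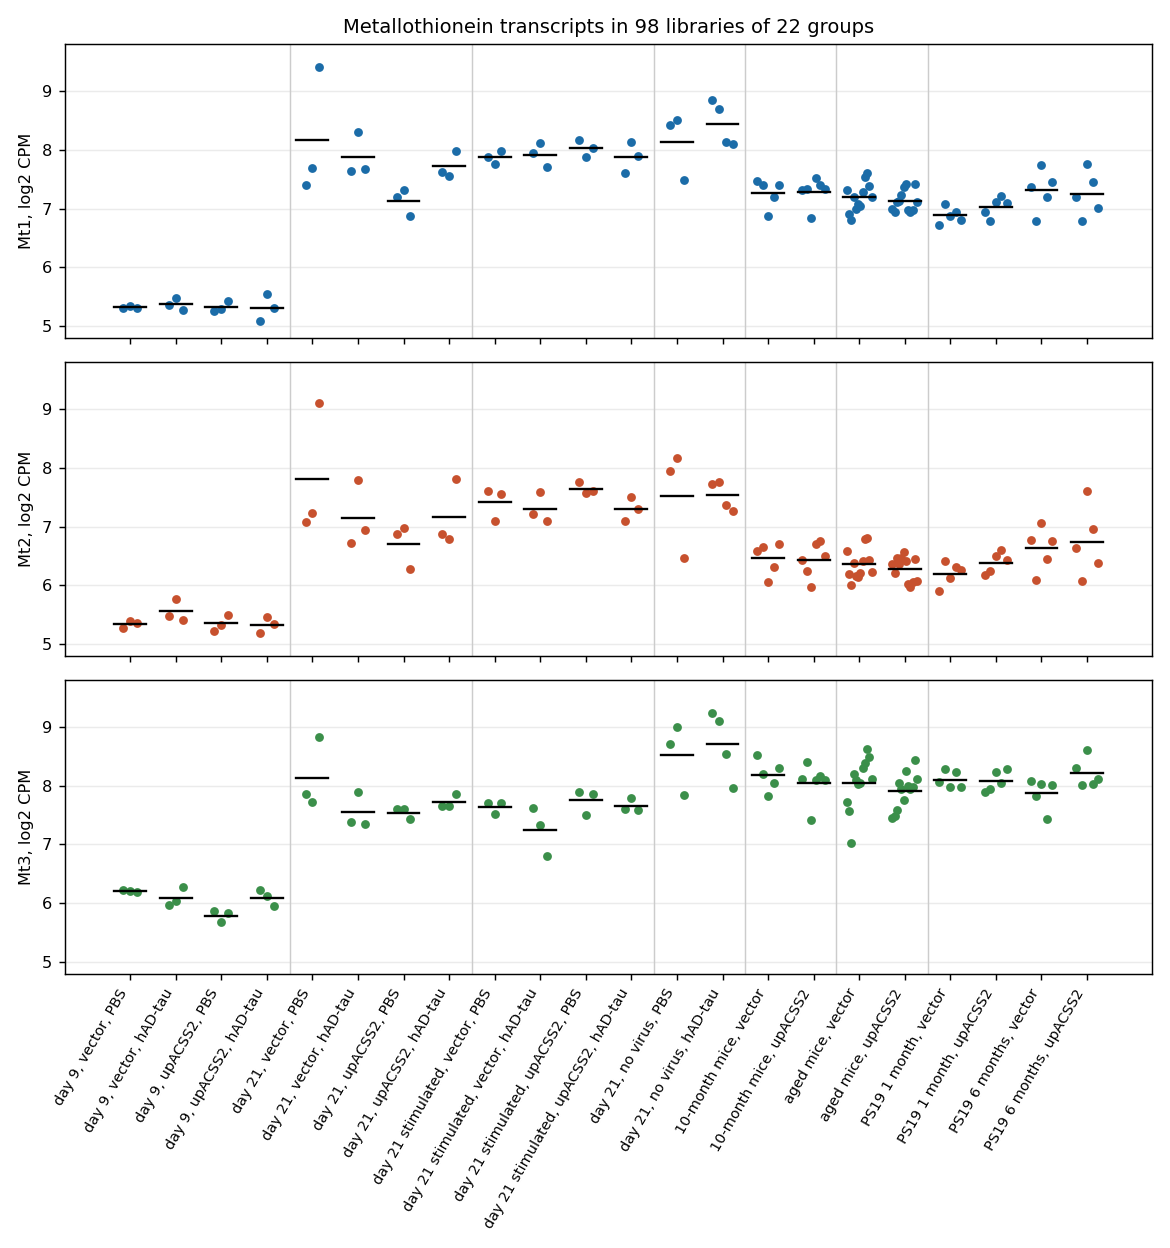
Each point is 1 library, placed by its level on the log2 CPM scale (vertical axis, TMM-scaled within each of 6 tables) in its group (horizontal axis), and black bars are group means. The 4 day 9 groups lie below all other groups for all 3 genes, and replicate 3 of the day 21 vector group in PBS stands above its 2 companions.

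The 22 groups were ordered by their mean CPM across tables, as a description without a test. Ordering puts groups of like mean side by side, so overlap of neighbours does not show that groups are alike. The ranges of neighbouring groups overlapped in 20 of 21 steps for Mt1, 20 of 21 for Mt2 and 19 of 21 for Mt3. The step without overlap that all 3 genes shared separated the day 9 groups from the rest. For Mt1 it lay between 118.5 ± 11.3 CPM (SD, n = 5) in 1-month PS19 mice with vector and 41.4 ± 3.1 CPM (SD, n = 3) in day 9 cultures with vector and hAD-tau. For Mt3 it lay between 156 ± 42.4 CPM (SD, n = 3) in stimulated cultures with vector and hAD-tau and 73.9 ± 1.06 CPM (SD, n = 3) in day 9 cultures with vector and PBS. The second such step of Mt3 placed day 9 cultures with upACSS2 and PBS last. The highest group mean was 8.95 times the lowest for Mt1, 6.91 times for Mt2 and 8.03 times for Mt3.

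The proportions of the 3 transcripts also differed between day 9 and day 21. For these ratios each level was divided by the length of the gene's first listed transcript (549, 511 and 536 bases for Mt1, Mt2 and Mt3). The ratio of Mt2 to Mt1 per kilobase was 1.01 to 1.31 in the 12 day 9 libraries and 0.569 to 0.958 in the 12 unstimulated day 21 libraries, without overlap. With these lengths, Mt2 was above Mt1 per kilobase in all 12 day 9 libraries, and Mt1 was above Mt2 in all 12 on day 21. The ratio was below 1 in every library of the other tables too, from 0.496 in virus-free cultures to 0.963 in PS19 mice. Tables were not tested against each other. The ratio of Mt1 to Mt3 per kilobase was 0.442 to 0.749 on day 9 and 0.666 to 1.47 on day 21, which overlap. It was highest in stimulated cultures, at 0.985 to 1.82 with a median of 1.20. In mice Mt3 exceeded Mt1 per length in all 55 libraries, with ratios of Mt1 to Mt3 of 0.387 to 0.836. Another choice of transcript length would shift a ratio by the same factor in all libraries. The difference in ratio between the days would remain, but the side of 1 on which day 9 ratios lie depends on these lengths. Before division by length, Mt1 was above Mt2 in some day 9 libraries, for example 46.6 against 43.9 CPM in replicate 2 of upACSS2 with hAD-tau.

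**Figure D2:**
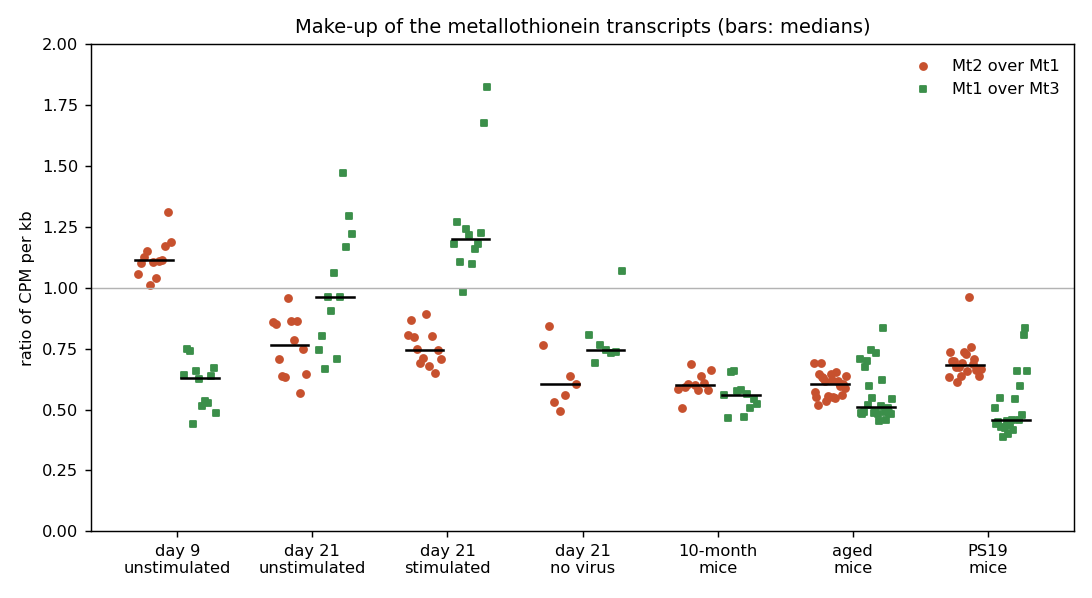
Ratios of 2 metallothionein transcripts per library, in CPM per kilobase (vertical axis), for the 7 sets of libraries (horizontal axis), with bars at the medians. Orange points (Mt2 over Mt1) lie above 1 on day 9 and below 1 in every other set, while green squares (Mt1 over Mt3) lie highest in stimulated cultures.

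Between day 9 and day 21, all 3 genes rose in each of the 4 pairs of unstimulated groups. The 24 libraries come from 1 table, and each pair compares the days within a virus and treatment. In the vector group with PBS, Mt1 was at 39.6, 40.4 and 39.5 CPM on day 9 and at 169, 206 and 683 CPM on day 21. The third library of day 21 lay far above the other 2, and the days did not overlap. The log2 fold change was 3.13 ± 0.35 (SE, n = 3 per day, edgeR adjusted p = 2.67e-07). Without that library it was 2.24 (edgeR adjusted p = 5.65e-09). Mt2 in the same group was at 38.4, 41.8 and 41.0 CPM on day 9 and at 135.5, 150.5 and 549 CPM on day 21, with the same library highest. Its log2 fold change was 2.77 ± 0.41 (SE, n = 3 per day, edgeR adjusted p = 9e-06), and 1.83 without that library. Mt3 went from 75.0, 73.8 and 72.9 CPM to 233, 210 and 453 CPM, again with the third library highest. Its log2 fold change was 2.00 ± 0.20 (SE, n = 3 per day, edgeR adjusted p = 5.02e-08), and 1.58 without that library. Of all genes tested, 57.7% passed the test in this pair, so a call alone does not set the metallothioneins apart.

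In the vector group with hAD-tau, the log2 fold changes were 2.53 for Mt1, 1.65 for Mt2 and 1.46 for Mt3 (edgeR adjusted p 3.94e-06, 0.00158 and 3.37e-06), where 52.6% of genes passed. With upACSS2 and PBS they were 1.82, 1.39 and 1.75 (edgeR adjusted p 0.000129, 0.00556 and 3.25e-07), where 54.3% passed. With upACSS2 and hAD-tau they were 2.41, 1.91 and 1.63 (edgeR adjusted p 5.94e-06, 0.000424 and 7.8e-07), where 53.6% passed. Beside these values, the median log2 fold change over all genes tested was 0.01 to 0.05 in the 4 pairs. Mt1 rose by more than Mt2 in each pair, and that difference between genes was not tested.

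Astrocyte markers rose over the same days. In the vector group with PBS 9 of 10 astrocyte markers rose and 0 fell, with a median log2 fold change of 2.20. The counts in the other pairs were 6 of 10 (vector, hAD-tau), 6 of 10 (upACSS2, PBS) and 9 of 10 (upACSS2, hAD-tau), with 0 lower in each. Over all genes tested, 52.6 to 57.7% passed in the 4 pairs. The summed level of the astrocyte list was 2289 to 2869 CPM in day 9 libraries and 3717 to 21240 CPM in day 21 libraries. Gfap, the intermediate filament of astrocytes, changed by 1.94 to 4.07 on the log2 scale and Aqp4, the astrocyte water channel, by 1.84 to 2.99. Oligodendrocyte markers were 4 or 5 of 6 higher and 1 of 6 lower, the lower one being Mog. Of 6 neuron markers Map2, Stmn2 and Tubb3 fell in all 4 pairs and Snap25 rose. In bulk libraries a larger share of a cell type and more transcript per cell cannot be told apart. The part of cell composition in the metallothionein values was not tested.

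Metal and stress genes fixed as lists beside the metallothioneins moved in both directions or upward. In the vector group with PBS 57.7% of all genes tested passed, 4550 higher and 4023 lower. The share in the other pairs was 52.6 to 54.3%, so a call alone does not set a listed gene apart. Of the 20 zinc transport and zinc sensing genes tested, 7 rose and 7 fell in the vector group with PBS, with a median log2 fold change of -0.09. Slc30a3, the transporter that loads zinc into synaptic vesicles, rose by 2.80 there and by 2.31 to 2.91 in the other pairs. Slc39a12, a zinc importer of astrocytes, rose by 1.89 in the vector group with PBS, and Slc30a10, a manganese exporter of the zinc transporter family, fell by 1.46. Slc39a1, a plasma membrane importer, rose by 1.3. Mtf1, which drives Mt1 and Mt2 in response to zinc, had log2 values of 0.05 to 0.32 and rose in 1 pair only (upACSS2, hAD-tau). Slc30a1, the zinc exporter that Mtf1 also drives, had values of -0.18 to 0.02 and passed in no pair. Of 8 copper genes 4 rose and 1 fell in the vector group with PBS. Cp (ceruloplasmin, the copper-carrying ferroxidase) rose by 1.89, Atp7b, a copper pump, by 1.54, Cox17, a copper chaperone of mitochondria, by 1.11, and Ccs, the copper chaperone of superoxide dismutase, by 0.58. Slc31a1, the main copper importer, fell in all 4 pairs, by 0.49 to 0.62.

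Of 10 NRF2 targets (genes of the oxidative stress response), 8 rose and 0 fell in the vector group with PBS, with a median of 1.29. The share of all genes that passed was 52.6 to 54.3% in the other pairs. In the vector group with PBS it was 57.7%, with 4550 higher and 4023 lower. Nqo1, a quinone reductase, rose by 3.0 there, Hmox1, heme oxygenase, by 2.93, Osgin1, a growth inhibitor induced by oxidative stress, by 2.38 and Slc7a11, the cystine importer, by 2.37. In the other pairs 8, 7 and 7 of 10 rose and 0, 1 and 0 fell, with Me1 the gene that fell in the upACSS2 group with PBS. Me1 was named after its values were seen, as was Ddit4 among the next list. Of 12 glucocorticoid-responsive genes, 9 rose and 1 fell (Ddit4) in the vector group with PBS, with a median of 0.69. In the other pairs 9, 9 and 11 rose and 0 fell. Plin4, a lipid droplet protein, rose by 2.85 in the vector group with PBS and passed in 1 other pair. Pdk4, a kinase of the pyruvate dehydrogenase complex, rose by 1.64 to 2.52 and Nr3c1, the glucocorticoid receptor, by 0.83 to 0.99.

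**Figure D3:**
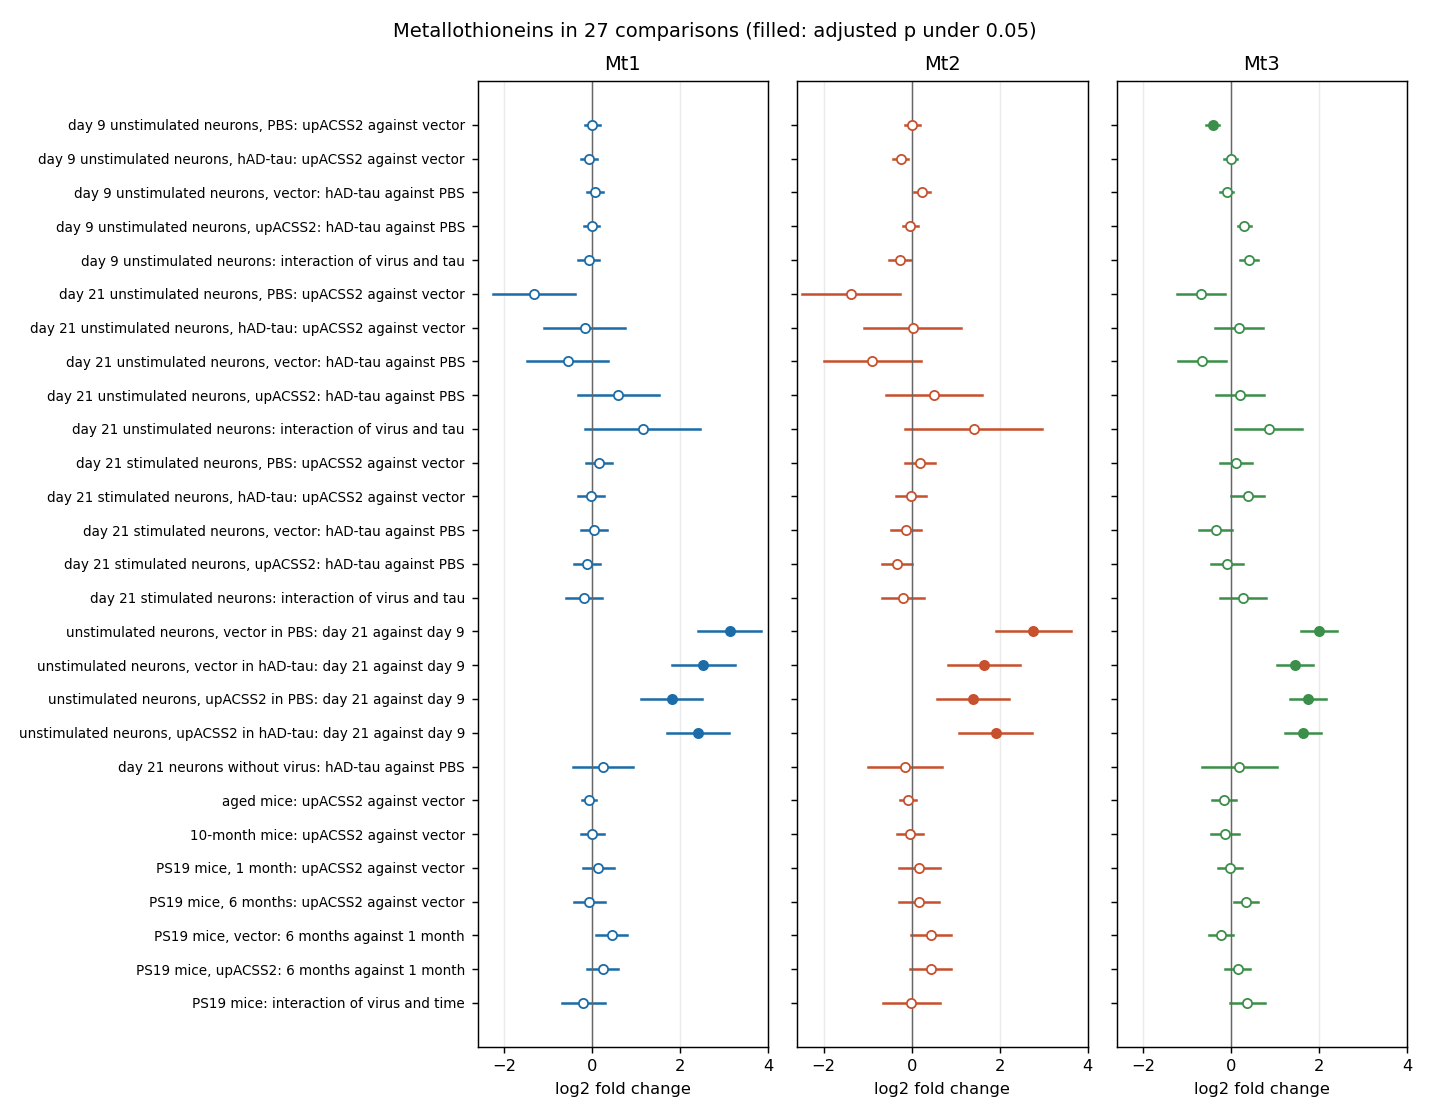
Log2 fold changes (horizontal axis) of Mt1, Mt2 and Mt3 with 95% intervals in 27 comparisons (vertical axis), from the t distribution with the degrees of freedom of the edgeR test and filled points where the adjusted p was under 0.05. Filled points are the 4 pairs of day 21 against day 9 for each gene and, for Mt3, upACSS2 against vector in day 9 cultures with PBS.

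Within day 9, 1 of the 5 comparisons gave a call, and only for Mt3. In PBS, Mt3 was at 75.0, 73.8 and 72.9 CPM with vector and at 58.0, 51.0 and 56.7 CPM with upACSS2. All 3 upACSS2 libraries lay below all 3 vector libraries. Here and elsewhere, overlap was looked at for the 3 metallothioneins only, so the share of all genes without overlap is not known. The 3 vector libraries differed by an SD of 1.43% of their mean, less than their counting error of 2.62%, and the upACSS2 libraries by 6.73%, with a counting error of 3.13%. Mt3 fell by 0.42 on the log2 scale (SE 0.07, n = 3 per group, edgeR adjusted p = 0.00181), where 10.2% of genes passed. Over the alternatives tried the edgeR or DESeq2 adjusted p ran from 1.97e-11 to 0.828. The highest came from a fit of all 24 unstimulated libraries, in which the value was -0.42 and Mt3 no longer passed. In the same comparison Mt1 was 38.0, 39.1 and 42.9 CPM with upACSS2 against 39.6, 40.4 and 39.5 CPM with vector, with a 95% interval of -0.17 to 0.18 for the log2 difference. Mt2 had an interval of -0.16 to 0.19. For both genes the groups overlapped. No astrocyte marker of the 9 tested passed here, while 3 of 6 neuron markers were higher and 1 lower (Snap25), and Mbp and Cnp of the oligodendrocyte list were lower. Of the zinc list 1 of 20 passed, Slc39a7, which releases zinc from the endoplasmic reticulum (-0.24), while Mtf1 had -0.09 and Slc30a1 0.01. Cox17 (-0.59) and Ccs (-0.46) of the 8 copper genes fell, and Slc7a11 (-0.53), Gsta4 (-0.25) and Txnrd1 (-0.21) fell among 10 NRF2 targets.

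With hAD-tau, no difference in Mt3 between the virus groups of day 9 was detected, with a log2 value of -0.01 and a 95% interval of -0.16 to 0.14 (0.692% of genes passed). Mt3 was at 74.7, 69.3 and 61.7 CPM with upACSS2 and 62.8, 65.2 and 77.6 CPM with vector, and the groups overlapped. Mt1 had -0.07 and Mt2 -0.25 in this comparison (edgeR adjusted p 0.791 and 0.184). Against PBS within upACSS2, all 3 hAD-tau libraries had more Mt3 than all 3 PBS libraries, but the log2 difference of 0.30 did not pass (edgeR adjusted p = 0.0645, 0.349% of genes passed). The same difference passed with DESeq2 (adjusted p = 0.015), without a filter on low counts (3.06e-05) and with only the 2 groups in the fit (0.0186). Over its alternatives the adjusted p ran from 3.06e-05 to 1. The test of whether the effect of upACSS2 differed between hAD-tau and PBS gave 0.41 for Mt3 (SE 0.10, edgeR adjusted p = 0.0552, 0.663% of genes passed). It passed with DESeq2 (0.0136), without the filter (4.09e-05) and without replicate 3 of the vector group with hAD-tau (0.00324). Under the others of the 17 alternatives it did not pass, for example with the replicate number as a block (edgeR adjusted p = 0.0614).

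For hAD-tau against PBS in day 9 vector cultures, Mt2 had the largest value of the 3 genes. Mt2 was at 44.6, 54.5 and 42.5 CPM with hAD-tau and at 38.4, 41.8 and 41.0 CPM with PBS, and the groups did not overlap. The log2 difference of 0.24 did not pass (SE 0.09, edgeR adjusted p = 0.104), and 4.28% of genes passed. Without replicate 3 of the hAD-tau group it was 0.30 and passed (edgeR adjusted p = 0.0311), as it did without a filter on low counts (0.00585). Under the others of its 12 alternatives it did not pass, for example with DESeq2 (adjusted p = 0.0989). Mt1 had 0.07 and Mt3 -0.11 there (edgeR adjusted p 0.709 and 0.425). Gfap rose by 0.56 with hAD-tau in these cultures and was the 1 of 9 astrocyte markers to pass. Of those 9 markers only 4 had positive values, with a median log2 value of -0.04. Of the NRF2 targets Hmox1 rose by 0.32 and Txnrd1 fell by 0.21. With upACSS2, Gfap (0.69) and Aqp4 (0.40) rose with hAD-tau, beside Slc7a11 (1.02) of the NRF2 targets. There too only 4 of 9 astrocyte markers had positive values, with a median of -0.005, so the list as a whole did not rise.

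Among unstimulated day 21 cultures no comparison of virus or hAD-tau passed for any of the 3 genes. The largest differences were those of upACSS2 against vector in PBS. Mt1 was at 147, 159 and 117.5 CPM with upACSS2, below all 3 vector libraries. Mt2 was at 118, 125.5 and 77.6 CPM and Mt3 at 194, 193 and 172 CPM, likewise without overlap. How many of all genes lacked overlap was not counted, and 2431 of 14639 had an unadjusted p under 0.05 by edgeR here. The log2 differences were -1.32 for Mt1, -1.38 for Mt2 and -0.68 for Mt3 (edgeR adjusted p 0.206, 0.237 and 0.233, 0.0137% of genes passed). Without replicate 3 of the vector group they were -0.42, -0.42 and -0.26 (edgeR adjusted p 0.528, 0.701 and 0.598). That replicate also had the highest astrocyte sum, 21240 CPM against 4774 and 8190 CPM in its companions. Of the 10 astrocyte markers 0 passed in this comparison, with a median log2 value of -0.90, and of the 10 NRF2 targets 0 passed, with a median of -0.51. In a fit of all 24 unstimulated libraries the 3 metallothionein differences passed (edgeR adjusted p 0.0186, 0.0318 and 0.032). That fit estimates the spread over both days, with a biological coefficient of variation of 0.135 against 0.189 on day 21 alone.

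For upACSS2 against vector under hAD-tau the log2 differences were -0.17, 0.03 and 0.17 for Mt1, Mt2 and Mt3, where 0.0273% of genes passed. The 95% interval for Mt1 was -1.09 to 0.75, with the spread estimated over all 12 day 21 libraries. For hAD-tau against PBS with vector they were -0.55, -0.90 and -0.66, and with upACSS2 0.60, 0.51 and 0.19, where Mt1 and Mt3 did not overlap between groups. Without replicate 3 of the vector group with PBS, the values with vector were 0.36, 0.06 and -0.23. Astrocyte markers had 0 of 10 positive values with vector (median -0.87) and 9 of 10 with upACSS2 (median 0.50), and their part in these values was not tested. The share of genes that passed in these 2 comparisons was 0%, with 1361 and 931 genes at an unadjusted p under 0.05 by edgeR and 3 and 11 passing by DESeq2. The interaction values were 1.16, 1.41 and 0.85 (edgeR adjusted p 0.641, 0.629 and 0.589), and 0.23, 0.44 and 0.41 without that replicate. All 10 astrocyte markers had positive interaction values, with a median of 1.61, and 0 of them passed. In the interaction 0% of genes passed by edgeR, 1215 had an unadjusted p under 0.05 and 3 passed by DESeq2.

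In stimulated day 21 cultures no member passed in any of the 5 comparisons. The library ranges of the 4 groups overlapped for Mt1, which was at 235, 217 and 252 CPM with vector and PBS and at 288, 236 and 261 CPM with upACSS2 and PBS. With hAD-tau it was at 245, 277.5 and 208 CPM with vector and 196, 282 and 239 CPM with upACSS2. Values for upACSS2 against vector in PBS were 0.15, 0.20 and 0.11 for Mt1, Mt2 and Mt3, where 0.208% of genes passed. Under hAD-tau they were -0.03, -0.00 and 0.37, where 0.937% passed, and the 0.37 of Mt3 had an edgeR adjusted p of 0.242. All 10 astrocyte markers had positive values there, with a median of 0.95. None of them passed, and their part in the value of Mt3 was not tested. For hAD-tau against PBS with vector, Mt3 had -0.35 (edgeR adjusted p = 0.224) while Mt1 had 0.06 and Mt2 -0.12, where 3.02% of genes passed. Mt3 was at 196, 162 and 111 CPM with hAD-tau there and at 208.5, 182 and 208 CPM with PBS. In that comparison Gfap fell by 1.70, Aldh1l1, a folate enzyme of astrocytes, by 0.79, Slc30a3 by 1.13 and Fkbp5, a glucocorticoid-induced chaperone, by 0.72, while Mtf1 had 0.35 and Slc30a1 0.26 without passing. The summed astrocyte level was 3109 to 4902 CPM with hAD-tau and 6560 to 10290 CPM with PBS, and its part in the value of Mt3 was not tested. For hAD-tau against PBS with upACSS2, Mt2 had -0.33 without overlap (edgeR adjusted p = 0.37, 0.208% of genes passed). The interaction gave -0.18, -0.20 and 0.26, where 0% of genes passed by edgeR, with 2135 at an unadjusted p under 0.05 and 128 passing by DESeq2.

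In cultures without virus, hAD-tau against PBS gave 0.25 for Mt1, -0.16 for Mt2 and 0.18 for Mt3 on the log2 scale (edgeR adjusted p 0.679, 0.835 and 0.809). Mt1 was at 459, 414, 279 and 274 CPM with hAD-tau and at 344, 363 and 179 CPM with PBS, and the groups overlapped for all 3 genes. The share of genes that passed was 0% by edgeR, with 2272 at an unadjusted p under 0.05, and 326 genes passed by DESeq2. With the replicate number as a block, which pairs these libraries, the values were 0.40, 0.07 and 0.42 for Mt1, Mt2 and Mt3 (edgeR adjusted p 0.331, 0.906 and 0.342). Mt1 and Mt3 were higher with hAD-tau in all 3 pairs of like number, a pairing that the labels do not state. Replicate 4 of hAD-tau has no partner, and its Mt1 (274 CPM) and Mt3 (250 CPM) lay below PBS replicates 1 and 2. How many of all genes went 1 way in all 3 pairs was not counted. All 10 astrocyte markers had positive values without the block, with a median of 0.75, of which 0 passed, and their part was not tested. Replicate 3 of the PBS group was lowest for all 3 genes and had the lowest astrocyte sum of the 7 libraries, 2269 CPM.

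In mice no difference between the viruses was detected for any of the 3 genes. In aged mice the log2 differences were -0.07 for Mt1, -0.09 for Mt2 and -0.16 for Mt3 (edgeR adjusted p 0.982, 0.975 and 0.954), with 95% intervals of -0.24 to 0.10, -0.27 to 0.10 and -0.44 to 0.11. Mt1 ran from 122.6 to 171 CPM (median 138) with upACSS2 and from 112 to 194 CPM (median 146) with vector. The share of genes that passed was 0% by edgeR, with 846 at an unadjusted p under 0.05 and 1 passing by DESeq2. Replicates 1 to 3 of both viruses held less Mt3 than all other aged mice, 131 to 212 CPM against 217 to 393 CPM in replicates 4 to 12. Mt1 (112 to 159 against 122.6 to 194 CPM) and Mt2 (64.4 to 95.4 against 62.8 to 112 CPM) overlapped between these libraries. With replicates 4 to 12 only, the virus differences were -0.09, -0.13 and -0.21. The labels give no batch for these mice.

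At 10 months the differences were 0.01, -0.03 and -0.14 for Mt1, Mt2 and Mt3 (edgeR adjusted p 0.991, 0.964 and 0.792), with 95% intervals of -0.25 to 0.26, -0.33 to 0.27 and -0.45 to 0.18. The share of genes that passed was 0% by edgeR, with 1204 at an unadjusted p under 0.05 and 4 passing by DESeq2. Mt1 was at 158, 160, 114, 183, 168 and 161.5 CPM with upACSS2 and at 177, 169.5, 117, 146 and 169 CPM with vector. The third mouse of each virus was the lowest for Mt1, Mt2 and Mt3.

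In PS19 mice at 1 month the virus differences were 0.14, 0.18 and -0.03 (edgeR adjusted p 0.964, 0.964 and 0.988). The share of genes that passed was 0% by edgeR, with 463 at an unadjusted p under 0.05 and 1 passing by DESeq2. At 6 months they were -0.06, 0.17 and 0.34 (edgeR adjusted p 0.902, 0.739 and 0.276), again with 0% of genes passing by edgeR, 2237 at an unadjusted p under 0.05 and 135 passing by DESeq2. Mt3 at 6 months was at 313, 259, 390, 261 and 276.5 CPM with upACSS2 and at 271, 227, 260, 172 and 258 CPM with vector, and the groups overlapped. Choroid plexus markers differed between the same mice, with a summed level of 85.2 to 5923 CPM with upACSS2 and 49.5 to 398 CPM with vector. All 5 of these markers had positive values (median log2 3.04) and 0 passed, and their part in the value of Mt3 was not tested.

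Between 1 and 6 months with vector, Mt1 and Mt2 had positive values and Mt3 a negative one, none of which passed. Mt1 was at 105, 135, 117, 122.6 and 112 CPM at 1 month and at 165, 111, 215, 147 and 174 CPM at 6 months, where all but the second mouse exceeded every 1-month mouse. Its log2 difference was 0.44 (SE 0.17, edgeR adjusted p = 0.102), and it passed without that mouse (0.54, edgeR adjusted p = 0.0487). Over its 15 alternatives the edgeR or DESeq2 adjusted p ran from 0.0487 to 0.277. Mt2 had 0.44 (edgeR adjusted p = 0.219) and Mt3 -0.23 (edgeR adjusted p = 0.3), where 7.46% of genes passed. With upACSS2 the values were 0.25, 0.43 and 0.14 (edgeR adjusted p 0.537, 0.397 and 0.662), where 0.0442% of genes passed. The interaction of virus and time gave -0.20, -0.01 and 0.37 (edgeR adjusted p 0.757, 0.998 and 0.429), with 0% of genes passing by edgeR, 1956 at an unadjusted p under 0.05 and 3 passing by DESeq2. With upACSS2 the 1-month mice gave whole hippocampus and the 6-month mice dorsal hippocampus, so region and time cannot be told apart there or in the interaction. All 5 choroid plexus markers had positive values in both (medians 1.69 and 2.56), and their part was not tested. With vector, Cox17 rose by 1.49, Hmox1 by 0.96, Slc39a14, a zinc and iron importer, by 0.30 and Plin4 by 1.63, while Slc30a9 fell by 0.26. Mtf1 had 0.10 and Slc30a1 0.09 there, and neither passed. In the comparisons for which no gene of the zinc, copper, glucocorticoid and NRF2 lists is named above, 0 of their genes passed. Of the 10 astrocyte markers 0 passed in that comparison, while Csf1r, the microglial growth factor receptor, rose by 0.60 and Mag, a myelin glycoprotein, by 0.74. The summed astrocyte level was 4510 to 7053 CPM at 1 month and 5660 to 10850 CPM at 6 months with vector.

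Within groups, Mt1 and Mt2 varied together in each of the 7 sets of libraries. Each level was centred on its group mean on the log2 scale, and 28 relations were tested by permutation within groups. Pearson's r of Mt1 and Mt2 was 0.853 on day 9 (n = 12, rho 0.93, exact permutation p = 0.00154, adjusted 0.0072) and 0.962 on unstimulated day 21 (n = 12, rho 0.972, exact permutation p = 0.000772, adjusted 0.0051). It was 0.843 in stimulated cultures (n = 12, rho 0.811, exact permutation p = 0.00463, adjusted 0.0162) and 0.923 in virus-free cultures (n = 7, rho 0.786, exact permutation p = 0.0208, adjusted 0.0389). It was 0.864 in aged mice (n = 24, rho 0.822), 0.91 at 10 months (n = 11, rho 0.845) and 0.959 in PS19 mice (n = 20, rho 0.956), with permutation p of 1e-05, 0.00091 and 1e-05, the first and last being the smallest that the resampling can give. The adjusted values were 0.00014, 0.0051 and 0.00014. Without the 2 libraries farthest from the median of Mt1, r was 0.762 to 0.961 in the 7 sets. Leaving out 1 library at a time ended the call in virus-free cultures for 5 of the 7 libraries. It did so in none of the other 5 sets so treated. In virus-free cultures r remained 0.913 to 0.962 throughout. The exact test has 144 arrangements with all 7 libraries and fewer without 1, so a lost call there cannot show a weaker relation.

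No relation of Mt1 and Mt3 was detected on day 9, where r was -0.357 (n = 12, rho -0.378, exact permutation p = 0.472). On unstimulated day 21 r was 0.96 (n = 12, rho 0.951, exact permutation p = 0.0123, adjusted 0.0288) and remained 0.966 without the 2 farthest libraries. The values were 0.665 in stimulated cultures (n = 12, exact permutation p = 0.0448, adjusted 0.0597) and 0.941 in virus-free cultures (n = 7, exact permutation p = 0.00694, adjusted 0.0177). In mice r was 0.721 (aged, n = 24), 0.871 (10 months, n = 11) and 0.599 (PS19, n = 20), with adjusted permutation p of 0.00149, 0.0171 and 0.0461. At 10 months it rested on the 2 farthest libraries, since r was 0.396 and rho over all 11 libraries was 0.509 (permutation p = 0.133). Without 1 library the call was lost for 4 of 12 libraries on unstimulated day 21 (replicate 3 of vector with PBS, both replicates 3 of upACSS2 and replicate 2 of vector with hAD-tau), for each of the 3 PBS libraries in virus-free cultures, for 15 of 20 PS19 mice and, at 10 months, for upACSS2 replicate 3. In virus-free cultures r of Mt1 and Mt3 remained 0.923 to 0.988 without 1 library, where the exact test has few arrangements. Whether the relation of Mt1 and Mt3 differed between day 9 and day 21 was not tested.

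No relation of Mt1 with the summed astrocyte markers was detected on day 9 (r = 0.0135, n = 12, exact permutation p = 0.968). On unstimulated day 21 r was 0.769 (n = 12, exact permutation p = 0.113), in stimulated cultures 0.571 (n = 12, exact permutation p = 0.0401, adjusted 0.0583) and in virus-free cultures 0.932 (n = 7, exact permutation p = 0.0139, adjusted 0.0299). In PS19 mice it was 0.711 (n = 20, permutation p = 0.00442, adjusted 0.0162), in aged mice 0.537 (n = 24, permutation p = 0.00652, adjusted 0.0177) and at 10 months 0.519 (n = 11, permutation p = 0.107). Among aged mice of replicates 4 to 12 only it was 0.427 and did not pass. In virus-free cultures 5 of the 7 libraries each ended the call when left out, and in PS19 mice 0 of 20 did. In virus-free cultures r remained 0.883 to 0.98 without 1 library, where the exact test has few arrangements. Mt3 had r of 0.175 with the astrocyte sum in PS19 mice, 0.449 in aged mice and 0.179 at 10 months, of which the aged value passed (adjusted permutation p 0.0432) and fell to 0.123 in replicates 4 to 12. On unstimulated and stimulated day 21 Mt3 had r of 0.822 with the sum in both (adjusted exact permutation p 0.0432 and 0.0355), and the call was lost without any 1 of 8 and of 3 of the 12 libraries. In virus-free cultures r was 0.79 (n = 7, adjusted exact permutation p 0.0583) and on day 9 0.178 (n = 12, adjusted exact permutation p 0.571). The libraries of a set share a table and its scaling.

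**Figure D4:**
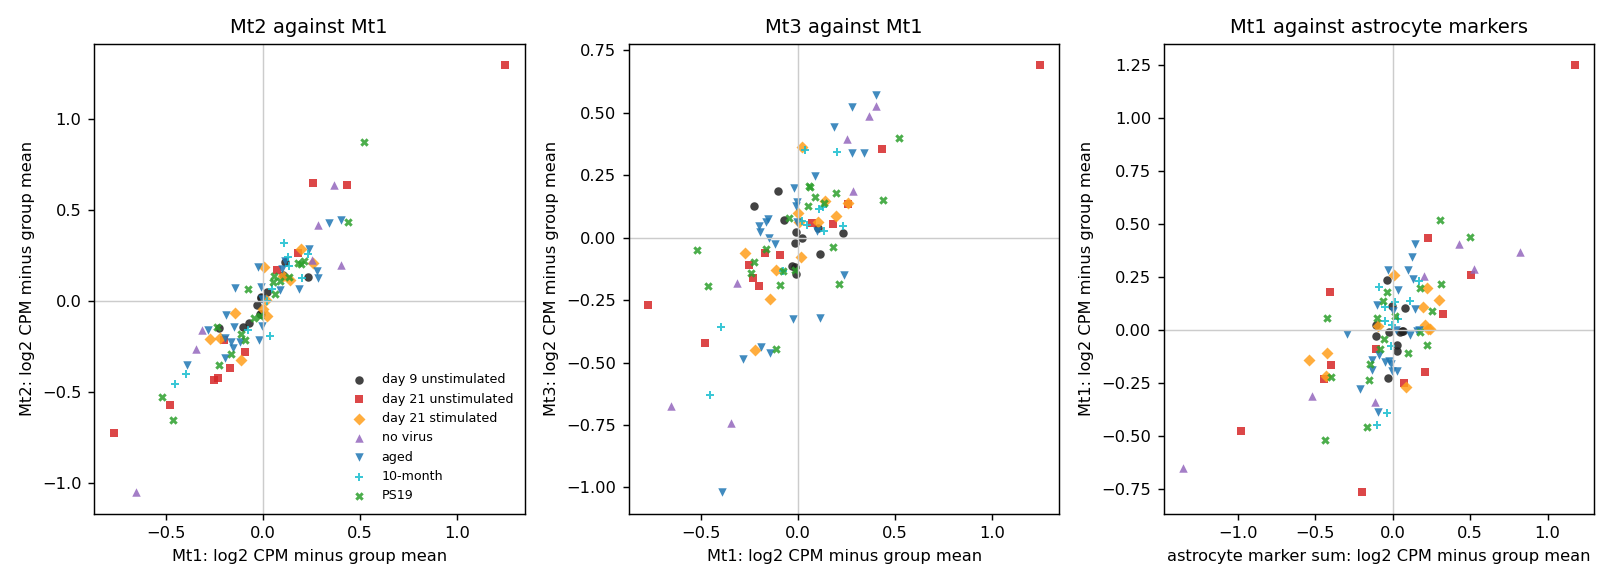
Each point is 1 library, given as log2 CPM minus the mean of its group on both axes, for Mt2 against Mt1, Mt3 against Mt1, and Mt1 against the summed astrocyte markers, with colours and shapes for the 7 sets of libraries. Points for Mt1 and Mt2 follow 1 line (r of 0.843 to 0.962), whereas the black day 9 points show no rise of Mt3 with Mt1 (r = -0.357).

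The genes most like each metallothionein were sought among 12260 genes in all 6 tables, by the mean over tables of r between levels centred on group means (98 libraries in all, shared tables and depths, given as a description). For Mt1 the closest gene was Mt2 (mean r 0.909), followed by Cst3 (0.876), the cysteine protease inhibitor cystatin C, Clu (0.868), a secreted chaperone, Prdx6 (0.857), a peroxiredoxin, and Sdc4 (0.815), a heparan sulfate proteoglycan. For Mt2 the list held Mt1 (0.909) and the same other 4 genes, Sdc4 (0.821), Prdx6 (0.816), Cst3 (0.809) and Clu (0.783). For Mt3 it was led by S100a1 (0.821), a calcium-binding protein, and Dbi (0.818), the acyl-CoA binding protein, followed by Cst3 (0.801), Mrps6 (0.778), a mitochondrial ribosomal protein, and Mt1 (0.776). Mt3 ranked 7 among the genes most like Mt1, and the mean r of Mt2 and Mt3 was 0.65.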

How the data were processed

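Read counts per gene were deposited as 6 tables and used as such. Per the submitters' processing notes, STAR, featureCounts, HTSeq and DESeq2 were named, with build mm10 and no versions, and the role of each tool and the strand setting are not given in the sources used here. An unnamed row of the virus-free table, with 6.13 to 8.74% of the counts, was left out. Library totals per table were 14603730 to 33960722 (unstimulated), 18804544 to 39985460 (stimulated), 5683314 to 29890248 (virus-free), 11436140 to 28161314 (aged), 5075099 to 10839489 (10 months) and 6910945 to 33259982 (PS19). No 2 libraries of a group held counts that agreed within sampling noise.

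Tests used edgeR 4.0.16 (TMM, filterByExpr by group, quasi-likelihood F, two-sided, Benjamini-Hochberg over all genes, threshold 0.05) in R 4.3.3, with 1 fit per table. Unstimulated cultures were fitted within each day, since the spread differed between days (biological coefficient of variation 0.042 on day 9 and 0.189 on day 21), and in 1 fit for day 21 against day 9. All 3 genes passed the filter in every fit. The 95% intervals of log2 differences are the estimate plus or minus the t quantile on the fit's degrees of freedom times the SE. The alternatives were RLE size factors, only the groups compared, DESeq2 1.42.0, no filter, all 24 unstimulated libraries in 1 fit, the replicate number as a block and leaving out each library. In aged mice the last was replaced by replicates 4 to 12 only, or by a term for them. The fitting was tested on simulated data. Relations were computed in Python 3.11.15 with numpy 2.4.6 and tested by permutation within groups (exact in cultures, 100000 resamples in mice), with Benjamini-Hochberg adjustment over 28. Genes named beside the 3 members come from fixed lists, being up to 4 per list that passed with the largest change, plus Mtf1 and Slc30a1, and by likeness the 5 genes with the highest mean r. Marker genes were named after their values were seen. The members and lists were chosen with earlier results of these data known.

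The main tests used no pairing by replicate number, and the replicate number as a block was an alternative only. In stimulated cultures every pair's deviations correlated above 0.1 for the virus comparison under hAD-tau (0.111 to 0.36). The same held there for hAD-tau against PBS with vector (0.124 to 0.327), and in virus-free cultures (0.22 to 0.394). With the block, Mt3 had 0.39 and -0.37 in these stimulated comparisons (edgeR adjusted p 0.185 and 0.176). Promoter windows are RefSeq's for GRCm38.p6. All 3 genes matched.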

Additional observations from a re-analysis of the deposited data

Results flagged for a closer look

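In 10-month mice with upACSS2, replicate 3 lay far below the other 5 mice for Mt1 and Mt3. Its Mt1 level was 114.1 CPM, against 158 to 183 CPM in the others, and its Mt3 level was 170.3 CPM, against 272 to 336 CPM. On the log2 CPM scale, on which the check was made, the gap to the next mouse was 0.695 and 0.687 of the whole range of the group. Its summed astrocyte level of 6093 CPM was the lowest of the 6 mice, in a range that reached 7348 CPM. Of 21 such checks, chance gives about 1 in 20, and the 2 values come from 1 library. Its part in the relation of Mt1 and Mt3 in these mice is given with that relation.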

How the results depend on the processing

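Under alternatives other than leaving out a library, 406 log2 values of the 3 genes kept their direction and their side of the threshold, 3 turned sign, 10 came to pass and 1 no longer passed. All 12 rises from day 9 to day 21 passed under each alternative tried. Without a filter on low counts, 4 day 9 values passed: Mt2 for upACSS2 against vector under hAD-tau (-0.2441) and for hAD-tau against PBS with vector (0.2397), and Mt3 for hAD-tau against PBS with upACSS2 (0.3031) and for the interaction (0.4118). The same values of Mt3 were 0.3036 and 0.4071 with DESeq2, and the first was 0.2999 with only the groups compared, all past the threshold. In a fit of all 24 unstimulated libraries the day 9 value of Mt3 in PBS (-0.416) no longer passed, while the day 21 values in PBS did (-1.302, -1.36 and -0.6677 for Mt1, Mt2 and Mt3). The biological coefficient of variation was 0.042 in the day 9 fit, 0.189 in the day 21 fit and 0.135 in the fit of all 24. The log2 values themselves changed little, and the part of the shared spread in these calls was not tested. With the replicate number as a block, 3 values that had not passed changed sign: Mt2 on day 21 for upACSS2 against vector under hAD-tau (-0.04801), Mt2 in virus-free cultures (0.07381) and Mt1 at 10 months (-0.004822). The block changed no call.

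Leaving out 1 library at a time, 571 values kept direction and side of the threshold, 3 came to pass, and 56 turned sign, none of which had passed. The ranges of such log2 values on day 9 were, for upACSS2 against vector in PBS, -0.05327 to 0.04837 (Mt1) and -0.06249 to 0.0879 (Mt2), and under hAD-tau -0.1937 to 0.03237 (Mt1) and -0.08072 to 0.08612 (Mt3). For hAD-tau with upACSS2 they were -0.1307 to 0.0955 (Mt1) and -0.09616 to 0.0542 (Mt2), and for the interaction of Mt1 -0.1957 to 0.03037. On unstimulated day 21 they were -0.3177 to 0.07777 (Mt1) and -0.3867 to 0.4132 (Mt2) for upACSS2 under hAD-tau, and -0.8827 to 0.3551 (Mt1) and -1.281 to 0.06368 (Mt2) for hAD-tau with vector. In stimulated cultures they were -0.1671 to 0.09363 (Mt1) and -0.113 to 0.1424 (Mt2) for upACSS2 under hAD-tau, and -0.03741 to 0.1562 (Mt1) for hAD-tau with vector. In virus-free cultures they were -0.005954 to 0.4028, -0.5227 to 0.1228 and -0.08331 to 0.4147 for Mt1, Mt2 and Mt3. In mice they were -0.08487 to 0.0791 (Mt1) and -0.1238 to 0.04397 (Mt2) at 10 months, and in PS19 mice -0.07162 to 0.02682 (Mt3, 1 month), -0.2301 to 0.07182 (Mt1, 6 months), -0.1352 to 0.3169 (Mt2, 6 months) and -0.309 to 0.1233 (Mt2, interaction). Values that passed without 1 library ranged over 0.1268 to 0.304 (Mt2 on day 9, hAD-tau with vector), 0.3417 to 0.5092 (Mt3 on day 9, interaction) and 0.3087 to 0.541 (Mt1 in PS19 mice with vector, 6 months against 1 month). The relation with the astrocyte sum ranged over -0.1677 to 0.2555 (Mt1, day 9), -0.1045 to 0.4899 (Mt3, day 9) and -0.2653 to 0.3992 (Mt3, 10 months).

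With RLE size factors 3 relations lost their call: Mt3 with the astrocyte sum on unstimulated day 21 (0.8274) and in aged mice (0.401), and Mt1 with Mt3 in PS19 mice (0.61). DESeq2 called more genes than edgeR in many comparisons, for example 1534 against 451 for hAD-tau in stimulated vector cultures, 966 against 140 for upACSS2 under hAD-tau there, and 1901 against 1182 for 6 months against 1 month in PS19 mice with vector. In stimulated cultures 22 zinc, 8 copper, 12 glucocorticoid and 10 NRF2 genes were tested. For upACSS2 under hAD-tau there, DESeq2 called 5, 2, 3 and 3 of them, where edgeR called 0. In that comparison DESeq2 called 966 of all 14939 genes tested, and the list counts were not tested against that share. Counting error was below the SD between libraries in all but 2 of 66 pairs of gene and group, which are named with the depths.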
